A study of Caenorhabditis elegans with 12 samples.

Results

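The genes described here belong to families that include small antimicrobial peptides made mainly in the epidermis (hypodermis) of Caenorhabditis elegans. They are nlp-24, nlp-29, nlp-31 and nlp-33 of the neuropeptide-like family, and cnc-2, cnc-4, cnc-5 and cnc-8 of the caenacin family. They were chosen by gene symbol. All 8 were measured, by 1 probe set each, out of 17118 genes with a probe set that names no other gene, and 22548 probe sets were tested in all. Affymetrix arrays were made from hrg-2 mutant and wildtype worms at the mid to late L4 larval stage, with 3 arrays in each of 4 groups. These are mutants given 20 µM heme, wildtype given 20 µM heme, mutants given 4 µM heme and wildtype given 4 µM heme. Neither the hrg-2 allele nor the strain is given in the sources used here, and the labels name no dissected tissue. Separate cultures are not stated for the arrays within a group, so each p-value rests on a spread that may be only technical.

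The epidermis is the worm's skin. It secretes the cuticle, and it answers fungal infection and wounding by making peptides of the nlp and cnc families. In textbook accounts, nlp-29 and its neighbours are switched on inside the epidermis through a p38 MAP kinase cascade (TIR-1, NSY-1, SEK-1, PMK-1) that ends on the STAT-like factor STA-2 and the transporter-like protein SNF-12. The gene cnc-2 is instead induced by the TGF-beta ligand DBL-1, which is secreted by neurons and read by the receptor SMA-6 and the Smad SMA-3 in the epidermis. The membrane protein HRG-2 acts in the same tissue and has a role in heme utilization, and C. elegans cannot make heme, so the comparisons ask what its loss and the heme supply did to expression.

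Of the 8 members 0 passed limma's test in any of the 6 comparisons made (Benjamini-Hochberg adjusted p under 0.05 over all 22548 probe sets), in which between 0% and 0.0399% of all probe sets passed. At 20 µM heme 7 of the 8 members had a positive mutant minus wildtype difference, with a median of 0.27 log2 units against -0.01 over all probe sets. At 4 µM 5 of 8 were positive, with a median of 0.25 against 0.03. That 4 µM median was 0.00345 without nlp-24 and cnc-5, whose values lie near the array floor, and -0.016 without the wildtype array numbered 2. The largest genotype difference was that of cnc-2 at 20 µM heme, 1.7-fold higher in the mutant (0.77 ± 0.40 log2 units, SE). Without a block for the array number its 95% interval, from -0.12 to 1.65, spans 0. With that block limma gave an SE of 0.24, an unadjusted p of 0.00922 and an adjusted p of 0.649. Of all probe sets 6.49% had an unadjusted p under 0.05 in that fit. The heme difference of cnc-2 pointed in opposite directions in the genotypes on every pair of same-numbered arrays, and the test of that difference did not pass either.

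Whole-series facts bear on all of these values. The deposited values are log2 expression values, and the lowest on each array lay between 1.755 and 1.915. Sperm genes and oocyte and eggshell genes had a positive median shift on the array numbered 3 in all 4 groups, against those numbered 1 and 2. Averaged over groups the median shift was 2.65 log2 units for sperm genes and 1.24 for oocyte and eggshell genes. Yolk protein genes shifted by 3.43 in mutants at 20 µM, 0.80 in wildtype at 20 µM, 4.78 in mutants at 4 µM and -1.23 in wildtype at 4 µM. With 0 probe sets for hrg-2 in the annotation, its own transcript gave no check of the genotype labels. The gene F47D12.6 split the genotypes without overlap, at 2.48 to 2.98 in mutants at 20 µM, 8.63 to 9.25 in wildtype at 20 µM, 2.54 to 2.88 in mutants at 4 µM and 8.36 to 9.32 in wildtype at 4 µM. It was taken from earlier results of these same data, so its split was known beforehand and is no independent check of the labels. Markers of the epidermis were present. The mean log2 level of 10 of 12 listed genes ran from 7.15 to 7.23 in mutants at 20 µM, 6.98 to 7.19 in wildtype at 20 µM, 6.88 to 7.36 in mutants at 4 µM and 7.08 to 7.34 in wildtype at 4 µM. In bulk RNA, less epidermis and less RNA per epidermal cell cannot be told apart.

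**Figure D1:**
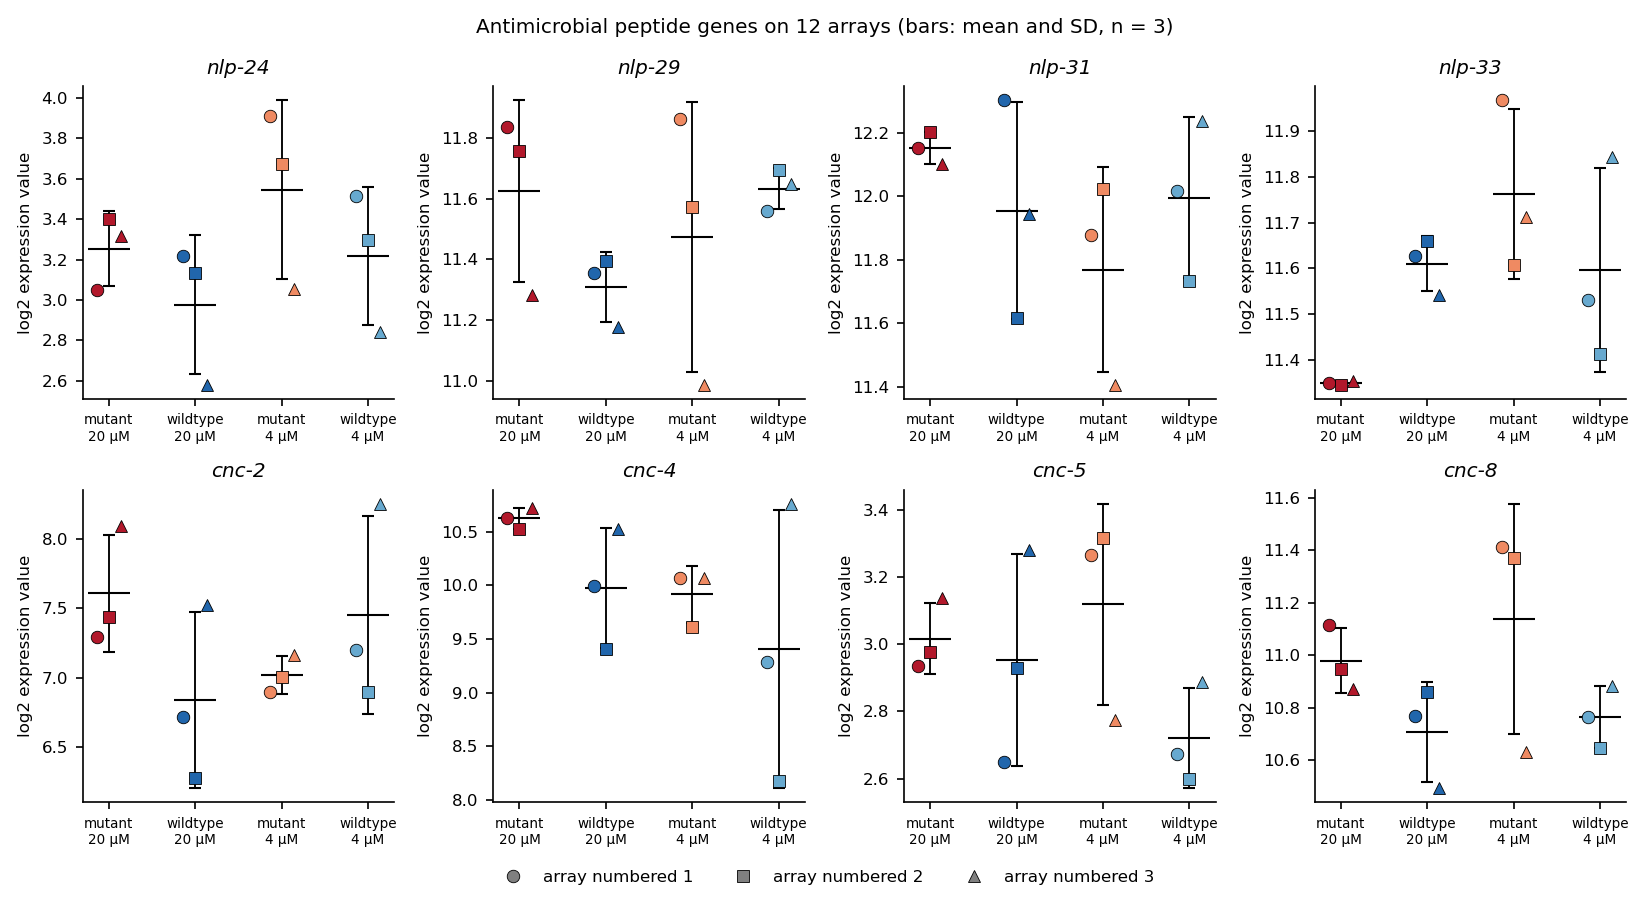
Log2 expression values (y axis, its own range in each panel) of the 8 genes on 12 arrays, by group on the x axis, with circles, squares and triangles for the arrays numbered 1, 2 and 3 and bars for the mean and SD (n = 3). In cnc-2 and cnc-4 the triangle is at or near the top of every group, and most groups overlap in all panels.

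The genes nlp-29 and nlp-31 lie in the same gene cluster. In the WBcel235 annotation the run is nlp-34, nlp-31, nlp-30, nlp-29 and nlp-28. Both were read by probe sets with the suffix x_at (172375_x_at and 172343_x_at), which Affymetrix gives to sets whose probes can match related transcripts, so the signals of the cluster's genes may not be fully separate. The gene nlp-29 is the standard reporter of epidermal infection and wounding. Its log2 values were 11.84, 11.76 and 11.28 in mutants at 20 µM heme, against 11.36, 11.39 and 11.18 in wildtype at 20 µM. Mutants at 20 µM were the higher in each same-numbered pair, but their array numbered 3 lay inside the wildtype range. The difference was 0.32 ± 0.24 (95% interval -0.21 to 0.84, limma adjusted p = 1).

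At 4 µM heme nlp-29 stood at 11.86, 11.57 and 10.99 in mutants, against 11.56, 11.69 and 11.65 in wildtype. Mutant arrays lay both above and below the tight wildtype values, and the lowest was the array numbered 3. The genotype difference there was -0.16 ± 0.24 (-0.68 to 0.36, adjusted p = 0.925). In wildtype, nlp-29 was lower at 20 than at 4 µM without overlap, with a difference of -0.32 ± 0.24 (adjusted p = 1). In mutants the heme difference was 0.15 ± 0.24 (adjusted p = 0.928). The highest group means were those of mutants at 20 µM (11.63 ± 0.30) and wildtype at 4 µM (11.63 ± 0.07), followed by mutants at 4 µM (11.47 ± 0.45) and wildtype at 20 µM (11.31 ± 0.12, SD, n = 3), and neighbours in that order overlapped.

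The gene nlp-31 encodes a peptide of the same family. It had 12.15, 12.20 and 12.10 in mutants at 20 µM heme, against 12.30, 11.62 and 11.94 in wildtype at 20 µM. It had 11.88, 12.02 and 11.41 in mutants at 4 µM, against 12.02, 11.73 and 12.24 in wildtype at 4 µM. Genotypes overlapped at both heme levels. The differences were 0.20 ± 0.23 at 20 µM and -0.23 ± 0.23 at 4 µM, with adjusted p of 1 and 0.881. Within mutants every 20 µM array lay above every 4 µM array (0.38 ± 0.23, adjusted p = 0.843). The wildtype heme difference was -0.04 ± 0.23 (adjusted p = 1).

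The gene nlp-33, another epidermal peptide gene, had the narrowest spread of the 8. Its residual SD of 0.147 log2 units exceeded that of only 4.37% of probe sets, and its probe set, 173252_s_at, carries a suffix for sets that can read several transcripts. Its values were 11.35, 11.35 and 11.35 in mutants at 20 µM heme, against 11.63, 11.66 and 11.54 in wildtype at 20 µM. Mutants were lower without overlap, with a difference of -0.26 ± 0.16 (-0.62 to 0.11, adjusted p = 1). At 4 µM it had 11.97, 11.61 and 11.71 in mutants, against 11.53, 11.41 and 11.84 in wildtype, where the groups overlapped (0.17 ± 0.16, adjusted p = 0.878).

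Within mutants nlp-33 was lower at 20 than at 4 µM heme without overlap. The difference of -0.41 ± 0.16 (-0.78 to -0.05) is a ratio of 0.752, with an unadjusted p of 0.0305 and an adjusted p of 0.799 by limma. Without a block for the array number it was the only member difference, over all 6 comparisons, with an unadjusted p under 0.05, a level that 6.16% of all probe sets reached in that comparison. Its wildtype heme difference was 0.01 ± 0.16. The difference between its genotype effects, -0.43 ± 0.23, had an unadjusted p of 0.0959 and an adjusted p of 1.

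The gene nlp-24 encodes a predicted neuropeptide-like protein and is the member whose probe set (183728_at) read lowest among the 4 nlp genes, near the lowest values on the arrays. It had 3.05, 3.40 and 3.32 in mutants at 20 µM heme, against 3.22, 3.13 and 2.58 in wildtype at 20 µM. It had 3.91, 3.67 and 3.05 in mutants at 4 µM, against 3.51, 3.30 and 2.84 in wildtype at 4 µM. The mutant was higher in all 3 same-numbered pairs at 4 µM and in 2 of 3 at 20 µM, with overlap at both levels. The differences were 0.28 ± 0.28 at 20 µM and 0.33 ± 0.28 at 4 µM (adjusted p = 1 and 0.856). Heme differences were -0.29 ± 0.28 in mutants and -0.24 ± 0.28 in wildtype (adjusted p = 0.882 and 1), and this close to the floor an array signal can understate a difference.

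**Figure D2:**
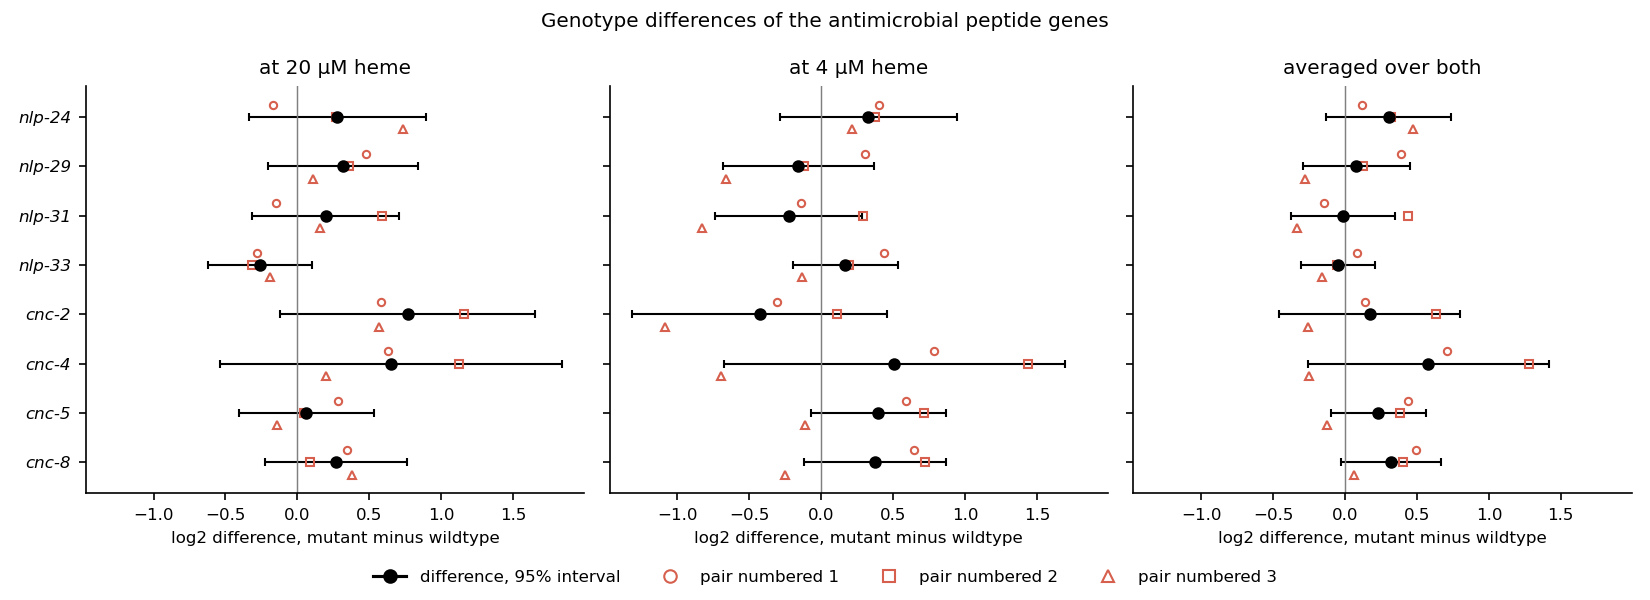
Log2 difference, mutant minus wildtype, of each gene (rows) at 20 µM heme, at 4 µM heme and averaged over both. Filled circles with bars are the limma difference and its 95% interval, and open symbols are the 3 same-numbered pairs. Every interval, from the fit without a block for the array number, spans 0. At 4 µM the pair numbered 3 lies below the other pairs in all 8 genes, an order whose share over all probe sets was not counted.

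The caenacin genes cnc-2, cnc-4 and cnc-5 lie in a run of cnc genes, with cnc-1, cnc-5, cnc-4, cnc-3 and cnc-2 adjacent in the WBcel235 annotation. The gene cnc-2, the DBL-1 responsive member, is read by 172437_x_at. That suffix again marks probes that can match related transcripts, so its signal may not be fully separate from other cnc genes. Its values were 7.29, 7.44 and 8.09 in mutants at 20 µM heme, against 6.72, 6.27 and 7.52 in wildtype at 20 µM. Each mutant array was higher than the wildtype array of its number, by 0.58, 1.16 and 0.56, while the wildtype array numbered 3 exceeded the lower mutant ones. Without a block for the number, limma gave 0.77 ± 0.40 with an unadjusted p of 0.0823 and an adjusted p of 1. With the block limma gave an SE of 0.24, an unadjusted p of 0.00922 and an adjusted p of 0.649.

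At 4 µM heme cnc-2 had 6.89, 7.00 and 7.16 in mutants, against 7.20, 6.90 and 8.25 in wildtype. The groups overlapped, and the high value was the wildtype array numbered 3. The genotype difference was -0.43 ± 0.40 (-1.31 to 0.46, adjusted p = 0.87). It was -0.03 without that array.

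The heme differences of cnc-2 had opposite signs in the genotypes. In mutants all 20 µM arrays lay above all 4 µM arrays, by 0.40, 0.43 and 0.92 between same-numbered arrays. In wildtype the 20 µM array was lower in each pair, with differences of -0.48, -0.62 and -0.73, although the groups overlapped. The heme differences were 0.59 ± 0.40 in mutants and -0.61 ± 0.40 in wildtype, with adjusted p of 0.859 and 1. The difference between them was 1.20 ± 0.56 (95% interval -0.06 to 2.45, unadjusted p = 0.0593, adjusted p = 1 by limma), and 0 of 22548 probe sets passed in that comparison. With the array number as a block the SE of that difference was 0.34 and its unadjusted p 0.00536, where 3.22% of all probe sets had one under 0.05, and its adjusted p was 0.997. Across all probe sets 2.26% had heme differences of opposite sign in the genotypes in all 3 pairs, 1.12% in the direction of cnc-2, and cnc-2 was the only 1 of the 8 members that did.

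The caenacin gene cnc-4 (184191_at) had 10.62, 10.53 and 10.72 in mutants at 20 µM heme, against 9.99, 9.41 and 10.52 in wildtype at 20 µM. Every mutant array lay above every wildtype array, the closest being the wildtype array numbered 3, beside the mutant array numbered 2. The difference was 0.65 ± 0.53 (-0.54 to 1.84, adjusted p = 1), a ratio of 1.57. At 4 µM it had 10.07, 9.61 and 10.07 in mutants, against 9.29, 8.18 and 10.76 in wildtype. The mutants lay inside the wide range of the wildtype arrays, and the difference was 0.51 ± 0.53 (adjusted p = 0.887).

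Heme differences of cnc-4 were positive in both genotypes. In mutants the 20 µM arrays lay above the 4 µM arrays without overlap (0.71 ± 0.53, adjusted p = 0.868). In wildtype the groups overlapped (0.57 ± 0.53, adjusted p = 1), and the difference was 0.71 and 1.23 in the pairs numbered 1 and 2 but -0.24 in the pair numbered 3. The group means ran from mutants at 20 µM (10.62 ± 0.10) through wildtype at 20 µM (9.97 ± 0.56) and mutants at 4 µM (9.92 ± 0.26) to wildtype at 4 µM (9.41 ± 1.30, SD, n = 3), and only the first 2 of these groups did not overlap as neighbours.

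The caenacin gene cnc-5 (185828_at) gave log2 values of 2.93, 2.98 and 3.14 in mutants at 20 µM heme, against 2.65, 2.93 and 3.28 in wildtype at 20 µM. It gave 3.27, 3.32 and 2.77 in mutants at 4 µM, against 2.67, 2.60 and 2.89 in wildtype at 4 µM. All were close to the array floor, and the genotypes overlapped at both heme levels. The differences were 0.06 ± 0.21 at 20 µM and 0.40 ± 0.21 at 4 µM (adjusted p = 1 and 0.791). Its heme differences were -0.10 ± 0.21 in mutants and 0.23 ± 0.21 in wildtype.

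The gene cnc-8 (177492_at), a caenacin that lies outside the cnc run, beside fipr-21, had 11.11, 10.95 and 10.87 in mutants at 20 µM heme, against 10.77, 10.86 and 10.49 in wildtype at 20 µM. Mutants were higher without overlap, narrowly (0.27 ± 0.22, adjusted p = 1). At 4 µM it had 11.41, 11.37 and 10.63 in mutants, against 10.77, 10.65 and 10.88 in wildtype. The mutant arrays numbered 1 and 2 lay above all wildtype arrays and that numbered 3 below them, and the difference was 0.37 ± 0.22 (adjusted p = 0.803). Averaged over heme, the cnc-8 difference of 0.32 ± 0.16 (-0.03 to 0.67) had the smallest unadjusted p of the 8 members, 0.0672, with an adjusted p of 0.808. Its heme differences were -0.16 ± 0.22 in mutants and -0.06 ± 0.22 in wildtype.

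Counted together, 0 of the 8 genes passed by limma at 20 µM heme, where 0.00443% of all probe sets passed, and 0 passed at 4 µM, where 0.00887% did. The count was also 0 for the genotype difference averaged over heme (0.00887% of all probe sets), for the difference between genotype effects (0%), for heme in mutants (0.0399%) and for heme in wildtype (0.0355%). With the array number as a block 0 of 8 passed as well, where 0.0798% of all probe sets passed for heme in mutants, 0.0665% for heme in wildtype and 0.00887% or fewer for genotype. Without the block an unadjusted p under 0.05 was reached by 0 members for genotype at 20 µM (1.68% of all probe sets), at 4 µM (6.11%) and averaged over heme (6.18%), by 0 for the difference between genotype effects (1.65%) and for heme in wildtype (1.39%), and by nlp-33 alone for heme in mutants (6.16%). With the block it was reached by cnc-2 for genotype at 20 µM (6.49% of all probe sets), for the difference between genotype effects (3.22%) and for heme in wildtype (3.06%), by cnc-2 and nlp-33 for heme in mutants (12.5%), and by 0 members for genotype at 4 µM (11.4%) and averaged over heme (13.7%). At 20 µM, 2 members (cnc-4 and cnc-8) were higher in mutants and 1 (nlp-33) lower without overlap, where 3.03% and 3.69% of all probe sets were. At 4 µM, 0 members were higher or lower without overlap, against 4.84% and 4.28% of all probe sets. For heme in mutants 3 members were higher (nlp-31, cnc-2 and cnc-4) and 1 lower (nlp-33), against 4.87% and 4.47% of all probe sets. For heme in wildtype 0 were higher and 1 (nlp-29) lower, against 2.64% and 4.04%. The comparisons of genotype and of heme share arrays.

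**Figure D3:**
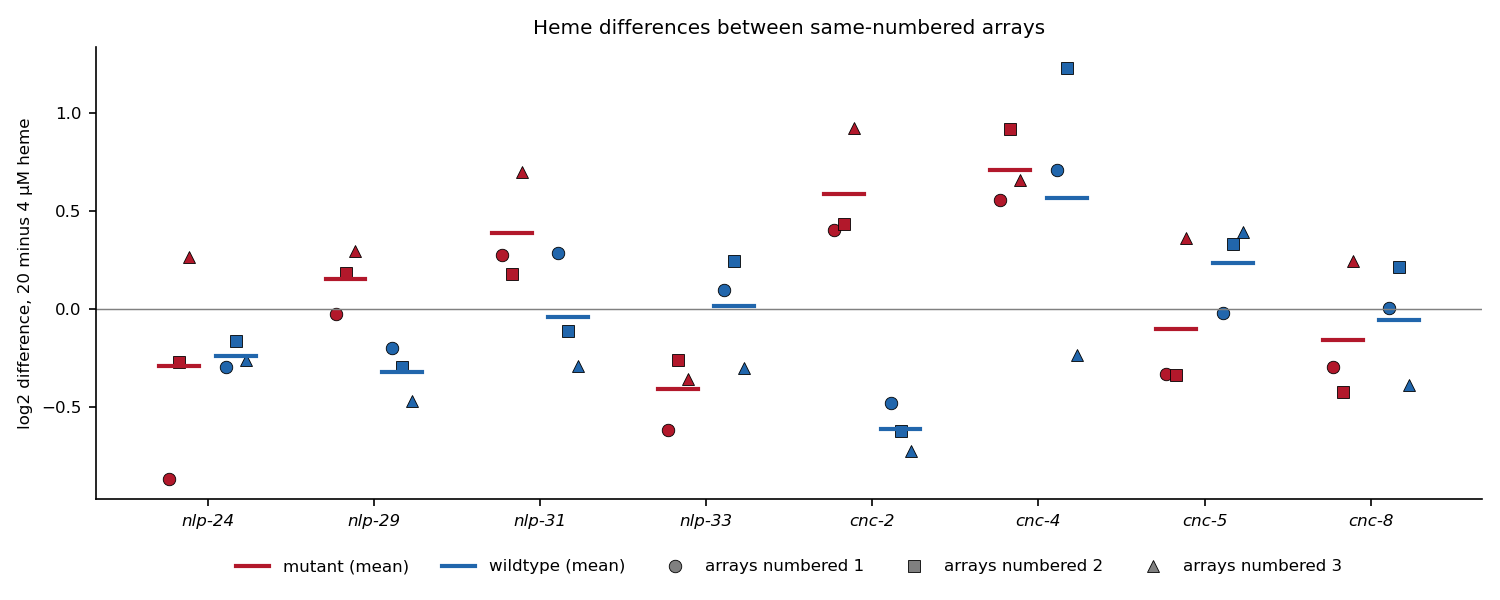
Log2 difference, 20 minus 4 µM heme (y axis), between same-numbered arrays for each gene, with mutants in red left of wildtype in blue and bars for the means. For cnc-2 all 3 mutant pairs lie above 0 (0.40 to 0.92) and all 3 wildtype pairs below it (-0.73 to -0.48), while nlp-33 lies below 0 in all 3 mutant pairs.

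The array number moved with several members. On the array numbered 3, against the mean of the other arrays of its group, cnc-2 was higher by 0.72 in mutants at 20 µM, 1.03 in wildtype at 20 µM, 0.22 in mutants at 4 µM and 1.20 in wildtype at 4 µM. The same shift for cnc-4 was 0.15 in mutants at 20 µM, 0.83 in wildtype at 20 µM, 0.23 in mutants at 4 µM and 2.03 in wildtype at 4 µM. These were the members higher there in all 4 groups. For nlp-24, nlp-29, nlp-31 and cnc-8 the shift was negative in 3 of 4 groups, and mutants at 4 µM had the most negative shift for nlp-24 (-0.74), nlp-29 (-0.73), nlp-31 (-0.54), cnc-5 (-0.52) and cnc-8 (-0.76).

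At 4 µM heme the mutant minus wildtype difference of the pair numbered 3 lay below those of the pairs numbered 1 and 2 in all 8 genes. The share of all probe sets with that order was not counted, so it cannot be called particular to these genes. In mutants at 4 µM the array numbered 3 also had the largest shift of sperm genes (median 4.49, against 2.30 in wildtype at 4 µM) and of oocyte and eggshell genes (2.95, against 0.71). Molting cycle genes shifted there by -1.56, against 0.26 in wildtype at 4 µM, and epidermis markers by -0.61, against -0.33. The part of these shifts in the members' differences was not tested. On the arrays numbered 1 and 2 alone, 2 of 8 members passed at 4 µM heme by limma, where 13% of all probe sets passed. These were cnc-5 (0.65, adjusted p = 0.0473) and cnc-8 (0.68, adjusted p = 0.0377), both higher in mutants, and the pair numbered 3 differed by -0.11 for cnc-5 and -0.25 for cnc-8. Averaged over heme, cnc-4 (0.99, adjusted p = 0.0388) and cnc-8 (0.45, adjusted p = 0.0448) passed on those arrays, as did 13.3% of all probe sets, while the pair numbered 3 averaged -0.25 for cnc-4 and 0.06 for cnc-8.

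**Figure D4:**
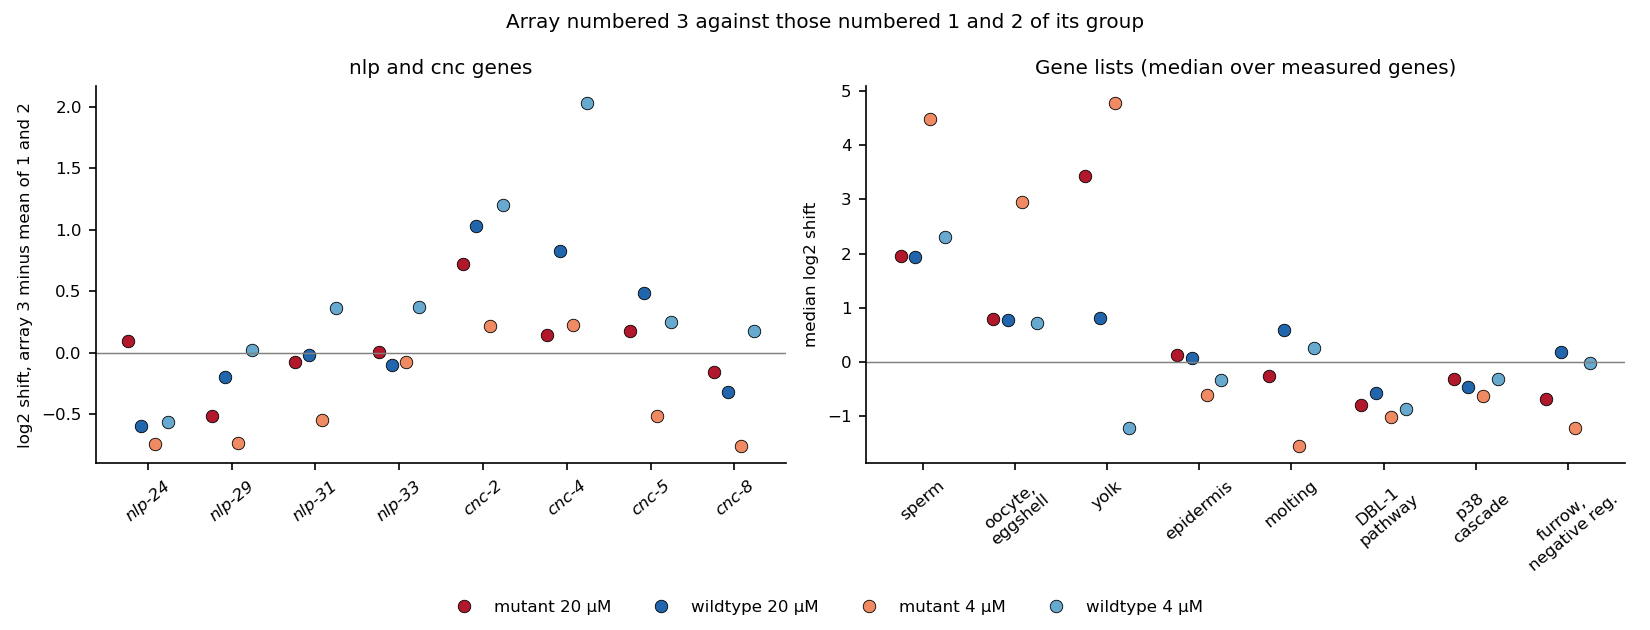
Log2 shift of the array numbered 3 against the mean of those numbered 1 and 2, by group (colours), for the 8 genes (left) and as medians of gene lists (right). The cnc-2 and cnc-4 points lie above 0 in all 4 groups, and mutants at 4 µM show the largest shifts of sperm and oocyte genes (4.49 and 2.95).

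Relatives of the members were measured too. Of 7 other nlp peptide genes 6 had a probe set, and all 6 had positive genotype differences at 20 µM (median 0.29) and at 4 µM (0.24), with 0 passing by limma and 0 at an unadjusted p under 0.05 in any of the 6 comparisons. The 3 of smallest p at 20 µM were nlp-30 (0.47 ± 0.39), a cluster neighbour of nlp-29 and nlp-31, nlp-25 (0.46 ± 0.47) and nlp-32 (0.11 ± 0.17). Of 7 other caenacin genes 4 were measured, with medians of 0.17 at 20 µM and -0.29 at 4 µM and again 0 passing or under 0.05 unadjusted. The gene cnc-3, which neighbours cnc-2 and cnc-4, had 0.18 ± 0.39 at 20 µM and -0.55 ± 0.39 at 4 µM, and 0.83 ± 0.39 for heme in mutants (adjusted p = 0.802). Of the nlp relatives, nlp-28 was positive at 4 µM by only 0.00085 ± 0.26, and nlp-32 read between 2.13 and 2.72 on all arrays, near the array floor. The caenacin relatives cnc-1 (2.66 to 3.36) and cnc-6 (3.16 to 4.09) also read low, near that floor. The probe sets of nlp-27, nlp-28, nlp-30, cnc-1, cnc-3 and cnc-7 also carry the suffix x_at. Their signals may be partly shared with members, so the relatives are not fully separate readings. Of all probe sets 48% were positive at 20 µM and 53.1% at 4 µM.

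**Figure D5:**
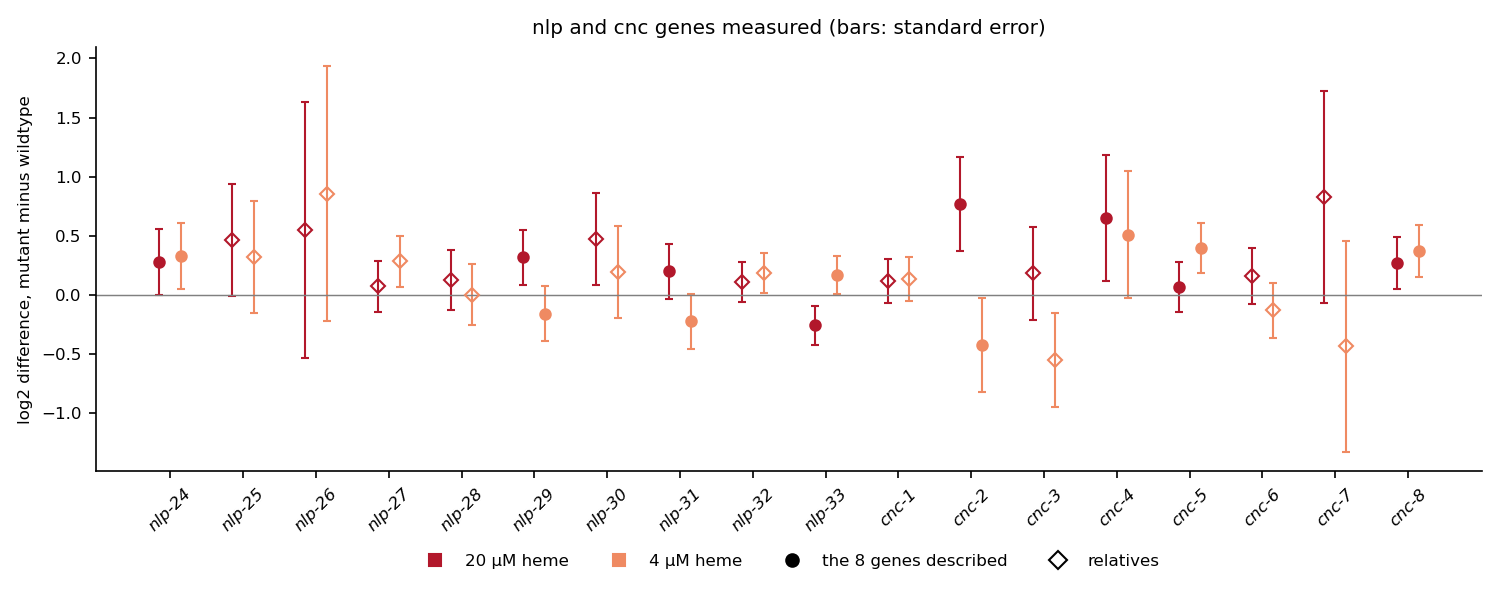
Log2 difference, mutant minus wildtype, at 20 µM heme (red) and 4 µM heme (orange) for the 18 nlp and cnc genes measured, with filled circles for the 8 genes described, diamonds for relatives and bars for the SE. The nlp relatives lie at or above 0 at both heme levels, nlp-28 almost at 0 at 4 µM, and cnc-2 and cnc-4 are the highest of the 8 at 20 µM (0.77 and 0.65).

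Genes of the p38 cascade upstream of the nlp peptides gave 0 calls among 16 measured of 17 in all 6 comparisons, and 0 had an unadjusted p under 0.05. Their median genotype difference was -0.08 at 20 µM and 0.09 at 4 µM. The kinase gene pmk-1 itself differed by 0.05 ± 0.29 at 20 µM and -0.17 ± 0.29 at 4 µM, and its upstream kinase gene sek-1 by -0.18 ± 0.24 and 0.35 ± 0.24. The STAT-like gene sta-2 differed by 0.04 ± 0.40 at 20 µM and 0.28 ± 0.40 at 4 µM. The smallest p for heme in mutants belonged to snf-12 (-0.70 ± 0.33) and the protein kinase C gene tpa-1 (-0.88 ± 0.43), with adjusted p of 0.802 and 0.809. For heme in wildtype it belonged to nipi-3, a pseudokinase gene needed for the response to infection (0.81 ± 0.45, adjusted p = 1). The kinase gene nsy-1 had no probe set of its own.

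Listed genes of the DBL-1 pathway, whose ligand induces cnc-2, also gave 0 calls among 9 measured of 9. Averaged over heme all 9 genotype differences were negative (median -0.19), where 52.8% of all probe sets were positive. An unadjusted p under 0.05, which 6.18% of all probe sets had, was reached by 2 of the 9. Those were the ligand gene dbl-1 (-0.54 ± 0.24, adjusted p = 0.803) and lon-2, a glypican gene that restrains DBL-1 signalling (-0.60 ± 0.26, adjusted p = 0.803). Ligand and glypican act in opposite ways on the signal, so the shared sign gives no direction for it. At 20 µM, where cnc-2 had its positive difference, dbl-1 was lower in mutants without overlap (-0.76 ± 0.33, adjusted p = 1). The Smad gene sma-2 was too (-0.33 ± 0.26), as were 3.69% of all probe sets at 20 µM. The receptor gene sma-6 differed there by -0.21 ± 0.52 and the Smad gene sma-3 by -0.002 ± 0.50. On the array numbered 3 all 9 were lower (median shift -0.79), opposite to cnc-2. The part of that shift in their differences was not tested.

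Loss of the furrow collagens, which form the ring-shaped grooves of the cuticle, is known to switch on nlp-29. Of the 12 listed furrow collagens and negative regulators, 11 were measured and 0 passed. The list was split: 6 were positive and 5 negative for heme in mutants, with 3 at an unadjusted p under 0.05 (6.16% of all probe sets). For genotype at 4 µM 4 were positive and 7 negative, with 2 such (6.11% of all probe sets). For heme in mutants the positive ones were the dpy collagen genes and osm-8, and ptr-23, peli-1, osm-11, dapk-1 and wdr-23 lay between -0.43 and -0.03. The collagen gene dpy-7 was 1.95 ± 0.53 higher at 20 than at 4 µM in mutants (adjusted p = 0.769), dpy-3 1.48 ± 0.48 and dpy-9 1.59 ± 0.59. At 4 µM dpy-7 differed by -1.37 ± 0.53 and dpy-3 by -1.08 ± 0.48 between genotypes (adjusted p = 0.791). In mutants at 4 µM this list shifted by -1.22 on the array numbered 3, against -0.03 in wildtype at 4 µM. Osmotic stress genes, which share triggers with nlp-29, gave 0 calls among 4, also at an unadjusted p under 0.05. Between genotypes at 20 µM 2 were positive and 2 negative, among them hmit-1.1, a myo-inositol transporter gene (-1.17 ± 0.78), and the glycerol synthesis gene gpdh-1 (0.40 ± 0.39), and at 4 µM all 4 were negative.

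Immune effector genes of the intestine were measured for contrast. Of 15 measured of 16, 14 had negative differences at 20 µM (median -0.28) and 12 at 4 µM (median -0.28). Of these 0 passed by limma, and 0 at 20 µM and 1 at 4 µM had an unadjusted p under 0.05. Of all probe sets 1.68% at 20 µM and 6.11% at 4 µM had such a p. The lectin gene clec-60 had the smallest p at both levels, with -0.83 ± 0.45 at 20 µM and -1.04 ± 0.45 at 4 µM (adjusted p = 1 and 0.791). General intestine markers were also negative in 6 of 8 at each level (medians -0.22 at 20 µM and -0.31 at 4 µM), with the intestinal GATA factor gene elt-2 at -1.17 ± 0.37 at 20 µM (unadjusted p = 0.00898, adjusted p = 1 by limma). Yolk protein genes, made in the intestine, had medians of -2.36 at 20 µM and -1.25 at 4 µM. At each level 4 of the 5 measured were negative and 1 positive, with 0 passing by limma and 0 under 0.05 unadjusted. Their mean on single arrays ran from 5.36 to 9.55 in mutants and 8.22 to 9.52 in wildtype at 20 µM. At 4 µM it ran from 5.28 to 10.54 in mutants and 7.24 to 9.45 in wildtype. The part of these intestine and yolk differences in the immune effectors' differences was not tested, nor was the difference between the effectors and the epidermal peptides. Molting cycle genes, 12 of 12 measured, had 0 calls by limma, with 0 at 20 µM and 1 at 4 µM at an unadjusted p under 0.05, and medians of 0.21 at 20 µM and -0.32 at 4 µM between genotypes, with noah-2, a cuticle matrix gene, at -1.43 ± 0.63 at 4 µM. For heme in mutants 11 of the 12 molting genes were positive and 1 negative (median 0.60), where 44% of all probe sets were positive. An unadjusted p under 0.05, which 6.16% of all probe sets had, was reached there by noah-2 and bli-1. Their heme differences were 2.06 ± 0.63 and 3.18 ± 1.13 (limma adjusted p = 0.769 and 0.799). Epidermis markers gave 0 calls, with 0 at 20 µM and 1 at 4 µM under 0.05 unadjusted and with medians of 0.09 at 20 µM and -0.02 at 4 µM, and the sterol-sensing domain gene che-14 had the smallest p among them (-1.14 ± 0.30 at 4 µM, adjusted p = 0.791).

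The members did not vary as a single block across the 12 arrays. Over their pairs Pearson's r ran from -0.337 (nlp-24 with cnc-2) to 0.712 (nlp-24 with cnc-8), with a median of 0.152. After the mean of each array number was removed it ran from -0.391 (nlp-33 with cnc-2) to 0.767 (nlp-29 with cnc-2), with a median of 0.309. The points share 4 groups and 3 array numbers, so these values are a description. Apart from the members, the genes most like their mean profile were nlp-30 (r = 0.928, rho = 0.916), zfr-1 (0.928), apg-1 (0.927), C16H3.3 (0.918) and srx-57 (0.91) over the 12 arrays. These genes were picked for the highest r among 17118 genes, over only 12 arrays. The mean profile stood for the members unevenly, with r from 0.154 (nlp-33) and 0.199 (nlp-24) to 0.768 (cnc-4). The nlp-30 set is an x_at set, and the part of shared signal in its likeness was not tested. With array numbers removed, C16H3.3 (r = 0.957), apg-1 (0.944), zfr-1 (0.942), srx-57 (0.938, rho = 0.713) and srh-279 (0.932) led, and nlp-30 was not among the first 5.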

How the data were processed

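Total RNA was labelled as biotinylated cRNA and hybridised to Affymetrix arrays, per the labels' protocols. The authors made the deposited log2 values (1 for each array and probe set) with RMA, and Partek 6.5 was used, per the submitters' processing notes, which as held here name no settings or filter. No sequence of the members was used.

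The 77 control probe sets were left out. Names came from the 2016 platform annotation, and all 8 member symbols matched RefSeq (WBcel235). The limma package (3.58.1, in R 4.3.3) was used two-sided (eBayes after lmFit, 4 group means, 12 arrays, 8 residual and 2.24 prior degrees of freedom) on all 22548 probe sets and was tested on simulated data. Errors are SEs of differences or SDs of groups. The number of arrays limits the precision. Every member was named. From each of 9 gene lists, named genes are among the 3 of smallest p in a comparison, or were chosen after their values were seen (pmk-1, sta-2, sma-6, sma-3, nlp-28, elt-2 and the regulators beside the collagens). A gene with several probe sets enters by that of highest mean. Members and lists were chosen with earlier results of these data known.

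Same-numbered arrays of the groups compared deviated together (r from 0.255 to 0.817 in 12 of 12 pairs across probe sets), so the numbers were taken to pair them, although the labels' titles give only the numbers. Alternatives were a block for the number, arrays 1 and 2 alone, each array left out, the compared groups alone, median centring, repeated quantile normalization, a filter on mean level, array weights and no moderation.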

Additional observations from a re-analysis of the deposited data

Results flagged for a closer look

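The caenacin gene cnc-2 is listed because its heme difference (20 minus 4 µM) was positive in all 3 same-numbered pairs of mutants (0.40, 0.43 and 0.92) and negative in all 3 pairs of wildtype (-0.48, -0.62 and -0.73). The difference between these heme effects was 1.20 log2 units, and its test did not pass (limma adjusted p = 1, and 0.997 with the array number as a block). With 1 array left out it ran from 0.80 to 1.54. Of all probe sets 2.26% had opposite signs in every pair, and 1.12% in this direction. Groups of 3 arrays are too small for the check on single outlying samples.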

How the results depend on the processing

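The members called numbered 0 in all 6 comparisons under every alternative but 1: with the arrays numbered 1 and 2 only, 2 were called for genotype at 4 µM and 2 for genotype averaged over heme. Of all probe sets 13% and 13.3% were called there. On the same arrays 0 members were called for heme in mutants, where 14% of all probe sets were. With array weights 0 members were called, against 3.86% of all probe sets for genotype averaged over heme and 4.45% for heme in mutants. The replicate block changed no member's call. With it the difference between genotype effects of cnc-2 remained 1.20, with an adjusted p of 0.997. Each member has 1 probe set, so averaging probe sets could change nothing, and the averaged and interaction comparisons already use all groups.

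The members' median moved beyond the spread between replicates in few fits, and the cause was not tested except where members left the fit. With probe sets above the median mean only, which leaves out nlp-24 and cnc-5, it was 0.00345 for genotype at 4 µM, 0.28 for the difference between genotype effects and 0.27 for heme in mutants. For the difference between genotype effects it was -0.29 on arrays 1 and 2 and -0.38 with array weights, whose estimate stopped before convergence. With 1 array left out the medians ran from -0.016 to 0.31 for genotype at 4 µM (lowest without wildtype 4 µM replicate 2) and from -0.18 to 0.16 for heme in mutants (lowest without mutant 4 µM replicate 3).

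Single differences changed sign in 18 of 356 combinations of member, comparison and other setting, in every case with neither value called. On arrays 1 and 2 these were nlp-29 (0.091) and nlp-31 (0.076) for genotype at 4 µM, nlp-31 (0.15) and nlp-33 (0.010) averaged over heme, cnc-4 (-0.23) for the difference between effects, and nlp-31 (0.085) and cnc-8 (0.11) for heme in wildtype. With array weights they were nlp-31 at 4 µM (0.092), averaged (0.084), for the difference between effects (-0.016) and for heme in wildtype (0.26), cnc-4 (-0.43) for the difference between effects and cnc-8 (0.072) for heme in wildtype. With median centring, nlp-31 (0.052) and nlp-33 (0.020) averaged over heme did so. With repeated quantile normalization nlp-31 averaged over heme (0.0067), nlp-24 for the difference between effects (0.056) and cnc-5 for heme in mutants (0.0079) did so.

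With 1 array left out, signs changed in 28 of 576 combinations of member, comparison and left-out array. The ranges were -0.35 to 0.084 for nlp-29 and -0.11 to 1.19 for cnc-4 at 4 µM, and -0.088 to 0.23 for cnc-5 at 20 µM. Averaged over heme they were -0.019 to 0.20 for nlp-29, -0.10 to 0.076 for nlp-31 and -0.10 to 0.015 for nlp-33. For the difference between effects they were -0.30 to 0.14 for nlp-24, -0.53 to 0.76 for cnc-4 and -0.35 to 0.036 for cnc-8. For heme in wildtype they were -0.21 to 0.13 for nlp-31, -0.077 to 0.14 for nlp-33, -0.049 to 1.24 for cnc-4 and -0.13 to 0.049 for cnc-8, and for heme in mutants -0.092 to 0.35 for nlp-29.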
